A study of Mus musculus with 3 samples.

Results

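The lysyl oxidases and the hydroxylases of collagen lysine and proline were examined as a set of 10 genes, taken by symbol: Lox, Loxl1, Loxl2, Loxl3, Loxl4, Plod1, Plod2, Plod3, P4ha1 and P4ha2. All 10 symbols were found among the 34591 of the deposited table. The cells were of the line 4T1, which derives from a mouse mammary carcinoma, and carried an over-expression of WISP2, a matricellular protein that cells secrete. The 3 libraries form 1 group that shares this genotype, so the values describe the over-expressing cells and their spread and not an effect of WISP2. The labels describe vector transduction and puromycin selection for Wisp1 constructs only, and neither the promoter of the WISP2 construct nor the number of clones is given in the sources used here. The empty-vector controls named in the design text were not analysed here. The study's title concerns WISP2, the linearization of collagen and metastasis.

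These enzymes act on collagen in sequence. In the endoplasmic reticulum, prolyl 4-hydroxylase, a tetramer of catalytic alpha and shared beta subunits, makes the hydroxyproline that stabilises the triple helix, and the lysyl hydroxylases make hydroxylysine, a site of glycosylation and a precursor of stable cross-links. Outside the cell, the copper-dependent lysyl oxidases convert lysine and hydroxylysine to the aldehydes from which cross-links form, in collagen and in elastin. The hydroxylases need iron, 2-oxoglutarate, oxygen and ascorbate, and several of these genes are known targets of the hypoxia-inducible factor (HIF). In breast tumours, lysyl oxidase activity is known for stiffening the matrix.

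The 3 libraries, called C1, C2 and C3 after their column names, held 17630755, 67028365 and 47577315 counts. Levels are given as CPM, each count divided by its library's total and scaled to a common depth, and a single count was worth 0.0567, 0.0149 and 0.0210 CPM. Genes at 1 CPM or more in all 3 libraries are called detected. Wisp2 stood at 429, 384 and 454 CPM. The column names match no sample title, and the labels do not tell whether separate cultures were used, so spread between libraries may be technical. The 5 epithelial markers (Krt8, Krt18, Krt7, Cdh1 and Epcam) were present in every library, with summed levels of 3430, 3461 and 3736 CPM. The 4 endothelial markers summed to at most 0.284 CPM. Of 8 fibroblast markers only Pdgfra was detected (18.3 ± 1.03 CPM, SD, n = 3), the list summed to 19.7, 21.2 and 19.1 CPM, and Lum and Thy1 had 0 counts. The 9 leukocyte markers summed to 20.1, 9.83 and 10.2 CPM, so C1 was highest; 2 of 9, Lyz2 and Cd68, were detected, and Cd3e had 0 counts. In such bulk RNA, fewer cells expressing a gene and less RNA per cell cannot be told apart.

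Of the 10 genes, 8 were detected, against 33.8% of all symbols in the table and 62.2% of the symbols with any count. Loxl4, Plod2 and P4ha1 exceeded 100 CPM on average. Loxl2 and Lox stayed below 1 CPM. The plot of levels by gene shows the span of this set, from a few counts for Lox to over 200 CPM for Loxl4.

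**Figure D1:**
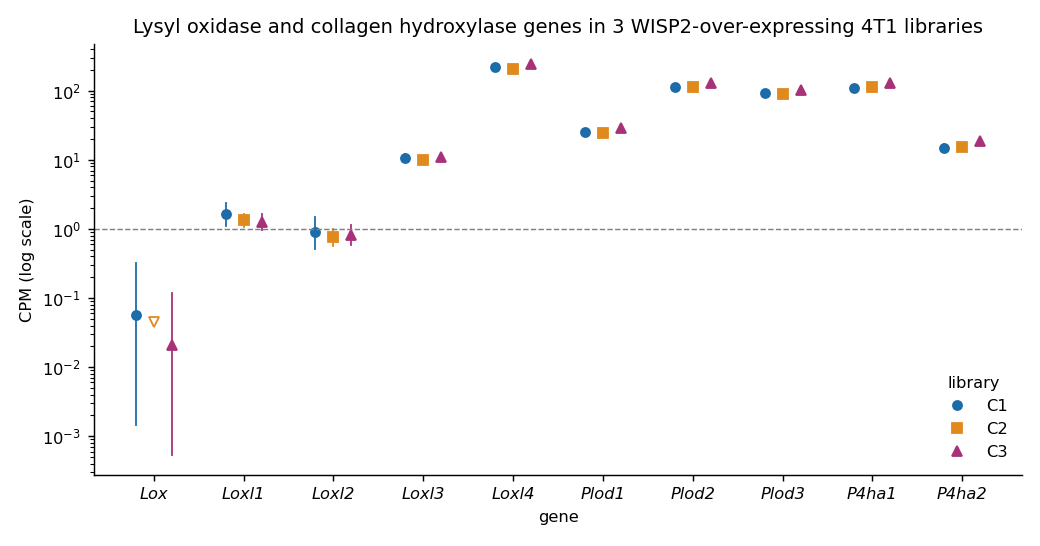
Level of each gene in each library, in CPM on a log axis; vertical lines are exact 95% counting intervals, the open triangle is the limit that 0 counts allow for Lox in C2 (0.0448 CPM), and the dashed line marks 1 CPM. Loxl4 lies between 207 and 242 CPM while Lox and Loxl2 lie below the line in every library.

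Among the lysyl oxidases, Loxl4 was by far the most abundant. Its levels in C1, C2 and C3 were 221, 207 and 242 CPM (224 ± 17.6, SD, n = 3), with exact 95% binomial (Clopper-Pearson) intervals of 215 to 229, 204 to 211 and 238 to 247. Such intervals hold only the error of counting and not the variation between libraries. Without molecular identifiers copies of 1 molecule are counted as several, so the intervals may be too narrow even for counting. C3 was highest and C2 lowest, and no interval overlapped another. Loxl4 lay above 92.4% of the 11700 detected genes, and above 90.4% of them when CPM was divided by kilobases of annotated exon. Loxl4 and Loxl3, like Loxl2, carry scavenger receptor cysteine-rich domains ahead of the catalytic domain, whereas Lox and Loxl1 carry a propeptide instead.

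Loxl3 stood at 10.6, 10.0 and 11.1 CPM (10.6 ± 0.539). Its counting intervals overlapped in all 3 libraries. Of the annotated exon bases of Loxl3, 11.6% also belong to Htra2 on the opposite strand, and the strand setting of the counting is not given in the sources used here, so part of these counts may not be its own. Loxl1, which is known to act in elastic fibre formation, stood at 1.64, 1.33 and 1.26 CPM, from 29, 89 and 60 counts. C1 was nominally highest but its interval (1.10 to 2.36 CPM) covered both other values.

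Loxl2 stood at 0.908, 0.761 and 0.820 CPM, from 16, 51 and 39 counts, again with overlapping intervals. Both Loxl1 and Loxl2 were highest in C1, the library with the highest summed leukocyte markers; the part of such cells in this order was not tested. Lox itself, the founding member, had 1 count in C1, 0 in C2 and 1 in C3. The limit set by 3 counts is 0.0448 CPM in C2, so any Lox messenger RNA lay near the detection limit of these libraries.

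Per kilobase of exon, Loxl4 made up 94.6%, 94.8% and 95.1% of the lysyl oxidase counts in C1, C2 and C3 (mean 94.8% ± 0.251). Loxl3 followed with 4.11% ± 0.107, Loxl1 with 0.769% ± 0.133 and Loxl2 with 0.275% ± 0.026. The share of Loxl1, which rests on few counts, ranged from 0.633% to 0.898% over the libraries. Within libraries, Loxl4 exceeded Loxl3 by 4.52 ± 0.04 on the log2 scale (23.0-fold), Loxl1 by 6.95 ± 0.26 (123-fold) and Loxl2 by 8.41 ± 0.15 (340-fold), each in 3 of 3 libraries. With only 2 Lox counts in all, the ratio of summed counts of Loxl4 to Lox was 14662, with a counting interval from 4058 to 121075. No p-value is given for such ratios, because an exact two-sided permutation of signs with n = 3 reaches p = 0.25 at best.

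In the hydroxylase families, a pair of genes made up most of the lysyl hydroxylase counts and a single gene most of the prolyl 4-hydroxylase alpha subunit counts. The plot of family shares sets the 3 families side by side.

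**Figure D2:**
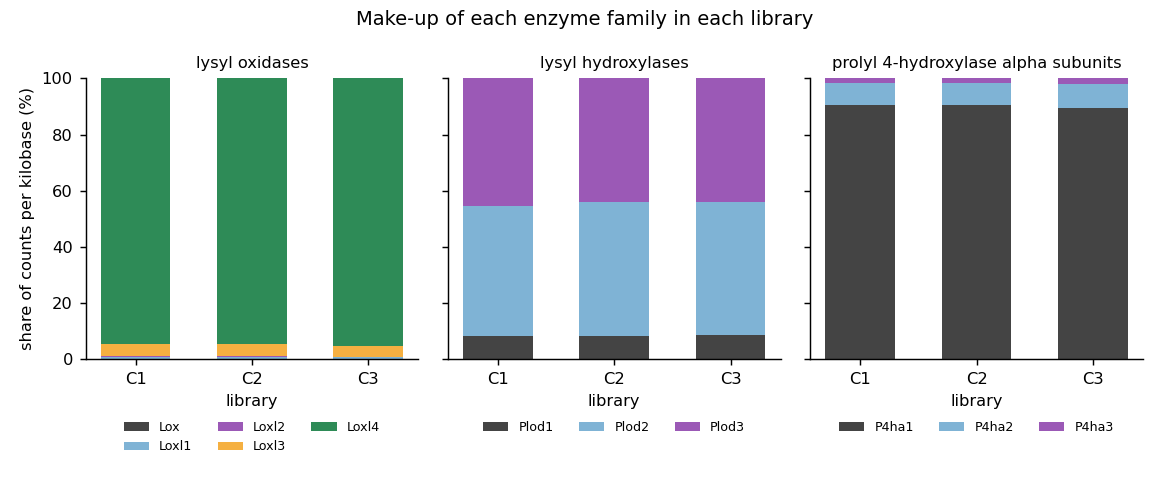
Share of each gene in the counts per kilobase of its family, in percent, for libraries C1, C2 and C3; each bar adds up to the whole family. Loxl4 takes 94.6% to 95.1% of the lysyl oxidases, Plod2 and Plod3 take similar shares of the lysyl hydroxylases, and P4ha1 takes 89.5% to 90.5% of the prolyl 4-hydroxylase alpha subunits.

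Plod2, the lysyl hydroxylase known for the telopeptides of collagen, stood at 112, 114 and 130 CPM (119 ± 9.93, SD, n = 3). C3 was highest, and the values of C1 and C2 were within each other's counting intervals. Plod3, which also carries glycosyltransferase activity toward hydroxylysine, stood at 92.3, 88.5 and 102 CPM (94.2 ± 6.77). C3 was again highest, and the intervals of C1 and C2 overlapped. Plod1, which hydroxylates the helical part of collagen, stood at 24.9, 24.5 and 29.2 CPM (26.2 ± 2.62), with the same order of libraries as Plod3.

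Per kilobase of exon, Plod2 made up 47.2% ± 0.682 of the lysyl hydroxylase counts, Plod3 44.6% ± 0.745 and Plod1 8.28% ± 0.171. Plod2 exceeded Plod1 by 2.51 ± 0.03 on the log2 scale (5.70-fold), and Plod3 exceeded Plod1 by 2.43 ± 0.05 (5.38-fold), in 3 of 3 libraries each. Plod2 and Plod3 were close. Their log2 difference was 0.08 ± 0.04, positive in 3 of 3 libraries, and it grew to 0.34 without the length correction. Of the annotated exon bases of Plod3, 11.7% also belong to Znhit1 on the opposite strand, so the order of Plod2 and Plod3 is uncertain.

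P4ha1, the main catalytic subunit of prolyl 4-hydroxylase in most cells, stood at 110, 113 and 129 CPM, with intervals of 105 to 115, 111 to 116 and 126 to 133. C1 and C2 overlapped and C3 lay above both. P4ha2, an alternative catalytic subunit, stood at 14.7, 15.2 and 19.0 CPM, with intervals of 13.0 to 16.7, 14.3 to 16.2 and 17.8 to 20.3. The pattern was the same, with C3 clear of both others. The remaining alpha subunit, P4ha3, which was outside the set, stood at 1.36, 1.39 and 2.02 CPM, also highest in C3.

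P4ha1 made up 90.2% ± 0.584 of the alpha subunit counts per kilobase, P4ha2 8.24% ± 0.371 and P4ha3 1.59% ± 0.213. With the longest transcript as length the share of P4ha2 was 15.2%. P4ha1 exceeded P4ha2 by 3.45 ± 0.07 on the log2 scale (10.9-fold) in 3 of 3 libraries. This ratio depends on the gene model: GENCODE lists 15 P4ha2 transcripts with 6239 exon bases in all, and with the longest transcript of each gene as its length the log2 difference was 2.45. P4hb, the beta subunit and also a protein disulfide isomerase in its own right, stood at 618, 604 and 703 CPM. Per kilobase it exceeded the sum of P4ha1 and P4ha2 by 2.85 ± 0.04 on the log2 scale (7.20-fold).

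Ordered by level per kilobase of exon, the set ran from Loxl4 (53.1 ± 4.18 CPM per kilobase) through P4ha1 (28.6 ± 2.54), Plod2 (22.1 ± 1.84), Plod3 (20.8 ± 1.5), Plod1 (3.88 ± 0.388), P4ha2 (2.62 ± 0.373), Loxl3 (2.30 ± 0.117) and Loxl1 (0.428 ± 0.062) to Loxl2 (0.153 ± 0.014), with Lox last. Plod2 and Plod3, and likewise P4ha2 and Loxl3, were neighbours that lay closer than the larger SD of the pair; the log2 difference of the second pair was 0.18 ± 0.15. That difference was 0.62 without length correction, 1.04 with the longest transcript as length and 1.11 with the coding length, so the closeness of P4ha2 and Loxl3 depends on the length used. Loxl4 exceeded P4ha1 by 0.90 ± 0.07 on the log2 scale, which became 1.04 with the longest transcript as length and 0.42 with the coding length. Plod1 exceeded P4ha2 by 0.57 ± 0.07, which became 0.27 and 0.25 in this order. The place of P4ha1 above Plod2 (0.37 ± 0.01) reversed to -0.16 when the longest transcript was taken as length, and to -0.018 without length correction.

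Most of these genes were highest in the same library. The 10 genes summed to 589, 575 and 665 CPM in C1, C2 and C3. Of the 8 detected genes 7 were highest in C3, though for Loxl3 within counting error, and Loxl1 was not. In the whole table, 34% of the detected genes were highest in C3. With TMM scaling and with DESeq2 size factors the count was again 7 of 8, against 35.6% and 35.8% of detected genes. Wisp2 was also highest there, as were 4 of the 5 epithelial markers, whose median deviation from the gene mean in C3 was 0.11 on the log2 scale; their part in the order of the enzymes was not tested.

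**Figure D3:**
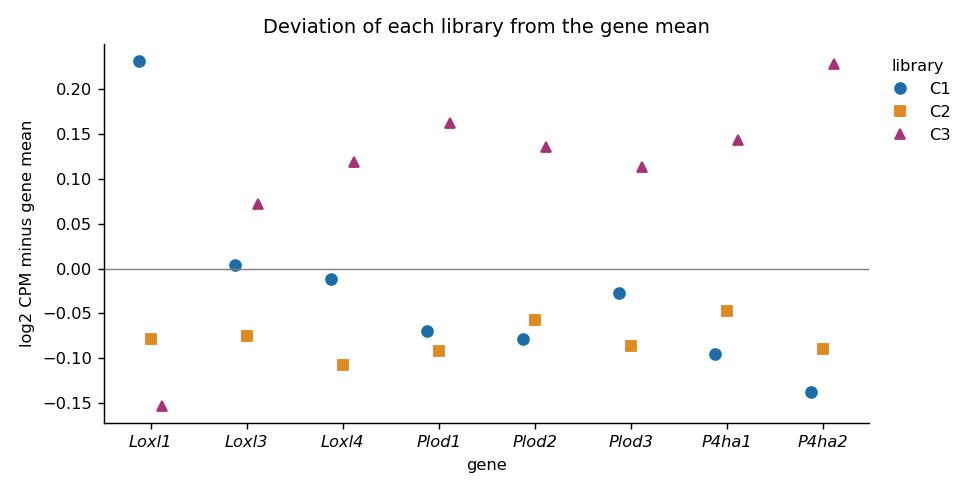
Log2 CPM of each library minus the gene's mean over the 3 libraries, for the 8 detected genes. The C3 points are the highest for every gene except Loxl1, whose 29 counts in C1 give it the largest positive point.

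Against the geometric mean of C1 and C2, the level in C3 was 1.27-fold for P4ha2, 1.18-fold for Plod1, 1.16-fold for P4ha1, 1.15-fold for Plod2, 1.13-fold for Loxl4, 1.12-fold for Plod3 and 1.08-fold for Loxl3. For Loxl1 it was 0.853-fold. The differences were small. The share of detected genes that deviated at least as far upward in C3 was 2.54% for P4ha2, 5.45% for Plod1, 6.91% for P4ha1, 7.45% for Plod2, 9.56% for Loxl4, 10.2% for Plod3, 18.9% for Loxl3 and 95.7% for Loxl1.

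Spread was tested on the whole table, with an intercept-only edgeR fit of 13026 genes, which held every member but Lox. In a Poisson dispersion test with Benjamini-Hochberg adjustment, 6 of the 9 genes varied beyond counting noise: Loxl4 (adjusted p = 6.1e-34), P4ha1 (3.3e-16), Plod2 (1.2e-15), Plod3 (2.0e-11), P4ha2 (4.9e-06) and Plod1 (1.5e-05). Of all genes tested, 39.3% did so, and 49.4% of those at 10 CPM or more in each of the libraries, where 6 of 7 members did. Loxl1, Loxl2 and Loxl3 did not pass (adjusted p = 0.61, 0.87 and 0.30). Without C3 only Loxl4 passed (adjusted p = 0.0037), at a background of 12.9%, so for Plod1, Plod2, Plod3, P4ha1 and P4ha2 the call rests on that library.

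Spread was next set against that of genes of similar level. The test for this called 9 of 13026 genes, and 0 with a robust fit, so not passing it does not show that a member varied like its peers. It was an F test of each gene's quasi-likelihood dispersion against the trended prior, computed from the edgeR fit, and not edgeR's own test of coefficients. In it 0 of 9 passed the adjusted threshold, against 0.0691% of all genes. Adjusted p ranged from 0.931 for P4ha1 to 0.998 for Loxl2. At an unadjusted p under 0.05 there were 3, P4ha1 (0.040), Loxl4 (0.047) and P4ha2 (0.049), against 5.15% of all genes.

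The HIF pathway genes lay high in the same library, as an earlier look at these data had shown for a hypoxia list. That look was known when the list was chosen, so the counts given here are not independent of it. Of 17 genes 16 were detected. Of these 16, 11 were highest in C3, against 34% of all detected genes, 3 in C2 and 2 in C1. Their median deviation there was 0.14 on the log2 scale, beside 0.13 for the lysyl oxidases and hydroxylases and -0.0036 for all detected genes. The glycolytic Ldha stood at 2025, 2005 and 2194 CPM, and Ndrg1, a stress-response gene, at 296, 307 and 429 CPM. Pgk1 (500.3, 515 and 512 CPM) and Hif1a, the oxygen-regulated subunit of HIF (222, 242 and 220 CPM), were not highest in C3. Neither were Adm (3.40, 1.61 and 3.26 CPM), Ankrd37 (6.81, 4.06 and 6.70 CPM) and Arnt (60.0, 64.3 and 60.1 CPM), named after their values were seen. Epas1, the gene of the second HIF alpha subunit, had 1 count in all. Car9, a carbonic anhydrase named here after its values were seen, stood at 32.4, 30.3 and 55.7 CPM and was the only gene of the list past the F test (adjusted p = 0.030); with a robust edgeR fit, which called 0 of 13026 genes (588 at an unadjusted p under 0.05), it did not pass. The part of the HIF pathway in the levels of the oxidases and hydroxylases was not tested.

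RefSeq promoters were on hand for 5 of the 10 genes. All 5 of these genes were highest in C3, against 7 of the 8 detected members and 34% of all detected genes. A link between the motif described next and the order of libraries was not tested. The promoters of P4ha1 and P4ha2, alternative alpha subunits of prolyl 4-hydroxylase, of Plod3, which held the most matches to the motif described next, and of Loxl4, the most abundant oxidase, are shown. Each run gives the 250 bases before the annotated start site, 5′ to 3′ in the direction of the gene, on GRCm38.p6, which is another build than the mm9 named for the counts. Capitals mark the core of the hypoxia response element, searched as ACGTG and GCGTG on both strands, so that CACGT and CACGC are also marked.
P4ha1, chr10:59323046-59323295, + strand: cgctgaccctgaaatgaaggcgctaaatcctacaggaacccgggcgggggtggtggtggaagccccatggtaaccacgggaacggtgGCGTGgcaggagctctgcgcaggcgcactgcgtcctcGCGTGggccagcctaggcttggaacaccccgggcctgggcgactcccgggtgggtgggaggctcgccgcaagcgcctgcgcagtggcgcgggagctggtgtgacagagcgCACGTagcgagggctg
P4ha2, chr11:54100674-54100923, + strand: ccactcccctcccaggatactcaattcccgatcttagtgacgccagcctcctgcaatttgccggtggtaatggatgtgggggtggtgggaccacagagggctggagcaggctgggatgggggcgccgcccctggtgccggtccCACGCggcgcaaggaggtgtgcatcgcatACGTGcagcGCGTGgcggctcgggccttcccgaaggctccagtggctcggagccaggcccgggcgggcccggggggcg
Plod3, chr5:136986769-136987018, + strand: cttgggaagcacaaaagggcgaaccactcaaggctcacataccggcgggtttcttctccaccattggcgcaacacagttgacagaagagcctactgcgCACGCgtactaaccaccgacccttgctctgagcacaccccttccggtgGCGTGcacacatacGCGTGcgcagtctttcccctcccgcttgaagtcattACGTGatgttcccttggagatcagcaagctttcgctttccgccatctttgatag
Loxl4, chr19:42612807-42613056, - strand: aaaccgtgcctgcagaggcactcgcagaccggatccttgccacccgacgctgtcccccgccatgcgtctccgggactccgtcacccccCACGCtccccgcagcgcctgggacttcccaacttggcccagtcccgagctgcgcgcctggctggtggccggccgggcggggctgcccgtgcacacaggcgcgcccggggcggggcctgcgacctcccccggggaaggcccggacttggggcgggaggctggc

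P4ha1 and P4ha2 had 3 matches each, Plod3 had 4 and Loxl4 had 1. Plod1, not shown, also had 1. Of all 32851 RefSeq promoters on hand, 38.6% held at least 1 match and 6.58% held 3 or more. Among promoters of detected genes, which are richer in G and C (median 60.4% against 52.4%), these shares were 57.8% and 12.4%. The G and C content of the promoters shown was 69.6% for P4ha1, 70.0% for P4ha2, 55.6% for Plod3 and 76.0% for Loxl4. A match describes the letters and is no evidence of binding.

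Of 8 partners and relatives of the prolyl hydroxylases, P4hb included, 7 were detected. Of these 7, 4 were highest in C3, against 34% of all detected genes, and 3 in C1. Their median deviation in C3 was 0.07. Crtap, part of the prolyl 3-hydroxylase complex, stood at 57.7 ± 3.39 CPM. The prolyl 3-hydroxylases Lepre1 (12.5 ± 1.11 CPM) and Leprel1 (11.6 ± 0.553 CPM) came next. Leprel4, a partner of the lysyl hydroxylase complex, had 1.42 ± 0.284 CPM. P4htm, a membrane-bound prolyl hydroxylase, had 4 counts.

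Of 10 genes of hydroxylysine glycosylation and collagen folding, 9 were found in the table and 6 were detected. Of these 6, 3 were highest in C3, against 34% of all detected genes, with a median deviation there of 0.06. The chaperone Serpinh1 stood at 467, 471 and 459 CPM, the peptidyl-prolyl isomerase Ppib at 367, 361 and 422 CPM, and the collagen galactosyltransferase Glt25d1 at 193, 187 and 193 CPM. Of Serpinh1, Ppib and Glt25d1, only Ppib was highest in C3. Fkbp10, an isomerase known to support Plod2, had 2 counts, both in C1, and Creb3l1 had 0. Tmem38b, an ion channel of the endoplasmic reticulum, stood at 9.13 ± 0.116 CPM.

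Of 12 genes that process procollagen or bind the oxidases, 7 were detected. Of these 7, 6 were highest in C3, against 34% of all detected genes, with a median deviation of 0.17. Bmp1, the proteinase that cleaves the collagen C-propeptide and activates pro-lysyl oxidase, stood at 204, 189 and 240 CPM. Its order of libraries was that of Loxl4, but also that of Wisp2, P4hb, Ppib, Krt8 and Krt18. The share of all genes with this order was not counted. Fibronectin, Fn1, stood at 1594, 1661 and 1948 CPM, and the enhancers of C-propeptide cleavage Pcolce2 and Pcolce at 103 ± 8.09 and 99.4 ± 6.24 CPM. All 7 detected genes varied beyond counting noise, against 39.3% of all genes tested and 49.4% of those at 10 CPM or more in every library. Postn was below that limit in C1 (9.87 CPM), and no share matched to the levels of these 7 genes was counted. In the F test 0 passed, against 0.0691%. Tll2, Adamts2 and Adamts3 had 0 counts, as did Fbln5, a partner of Loxl1 in elastic fibres that is named here after its values were seen.

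**Figure D4:**
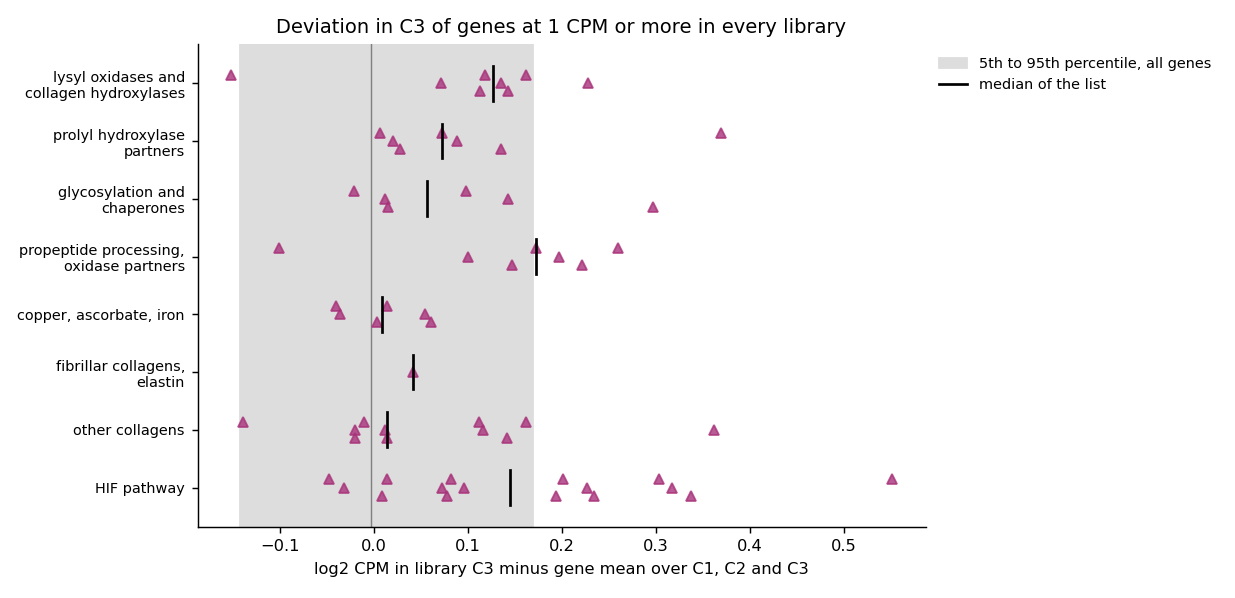
Log2 CPM in C3 minus the gene's mean over the 3 libraries, for the detected genes of each list; black bars are list medians and the grey band runs from the 5th to the 95th percentile of all such genes (-0.14 to 0.17). The medians were 0.17 for the processing and oxidase partners, 0.14 for the HIF pathway and 0.13 for the oxidase and hydroxylase set. They were 0.07 for the prolyl hydroxylase partners, 0.06 for glycosylation and chaperones and 0.04 for Col5a1, the only detected fibrillar gene. For other collagens and for copper, ascorbate and iron they were 0.01. The medians of the oxidase and hydroxylase set and of the HIF pathway lie within the grey band.

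Of 8 genes that supply copper, ascorbate or iron to these enzymes, 6 were detected. Of these 6, 2 were highest in C3, against 34% of all detected genes. The transferrin receptor Tfrc, which takes up iron, stood at 524, 487 and 507 CPM, the copper importer Slc31a1 at 58.4, 62.8 and 58.3 CPM and the copper chaperone Atox1 at 49.5, 46.4 and 45.9 CPM. The iron transporter Slc11a2 stood at 42.9, 38.3 and 43.2 CPM. Slc23a1, an ascorbate transporter, had 1 count.

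Among the substrates, of 11 fibrillar chains and elastin, 1 gene, Col5a1, was detected (55.5, 62.1 and 61.3 CPM). Col27a1, Col1a2 and Col11a2 were between 0.821 and 0.956 CPM on average. Eln, the gene of elastin, and Col11a1 had 0 counts. Of 17 other collagen chains 11 were detected, led by the basement membrane chains Col4a1 (423, 432 and 423 CPM), Col18a1 (253, 250 and 282 CPM) and Col4a2 (260, 254 and 252 CPM) and by the network-forming Col8a1 (313, 331 and 326 CPM). Col4a3 had 0 counts. Of the 11 genes 5 were highest in C3, against 34% of all detected genes, and the median deviation there was 0.01.

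Genes with deviations most like those of a member were sought over these 3 libraries only, by the largest difference of centred log2 CPM. Among the detected members Loxl1 had the widest range (0.38 on the log2 scale) but did not pass the Poisson test (adjusted p = 0.61). The genes nearest to it were Nlrp1a, Gm12258, Zfp382, Gm11007 and Amigo1, all within 0.02. For P4ha2, added after the values were seen as the widest among those past the Poisson test (0.37), they were Adamts7, Tmem14a, Clu, Ypel2 and Creb3l2, also within 0.02. Within 0.05 of P4ha2 lay 100 of 11699 genes, and within 0.05 of Loxl1 lay 35, so likeness over 3 libraries singles out little.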

How the data were processed

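Messenger RNA of 3 libraries of 1 group was measured after poly(A) selection with a strand-preserving kit, per the labels' protocols. The authors deposited raw, whole-number read counts per gene symbol; the submitters' processing notes list CASAVA 1.7, BWA, STAR, HTSeq and the build mm9 without saying what each was used for. Not given in the sources used here are the annotation, the strand setting and how multiply matching reads were handled. Columns were assigned to the group as a whole.

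CPM used column totals. Ratios had 0.5 counts added and were divided by exon lengths of GENCODE M21 (on GRCm38), which matched 31440 of 34591 symbols (90.9%), older symbols included. GENCODE coordinates on GRCm38 served only for lengths and for overlaps with other genes, and promoters are given on GRCm38.p6. A gene at 0 was given the limit of 3 counts. Spread was fitted with edgeR 4.0.16 (R 4.3.3, limma 3.58.1, TMM, filterByExpr, threshold 0.05). The tests were also run on simulated data, whose outcome is not given here and is not relied on. Alternatives used DESeq2 1.42.0 size factors, other lengths and filters, a robust fit, and each library left out. The 10 members, the 7 pathway lists, the 4 marker lists and the tests were chosen with earlier results of these data known. The text names the members, Wisp2, up to 4 of the highest and 3 of the absent genes of a list, partners in complexes with a member, and the 5 most alike genes. Mia3 is named only.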

Additional observations from a re-analysis of the deposited data

How the results depend on the processing

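The level of each gene stayed within 1 SD under TMM, DESeq2 size factors and each library left out (50 of 50 alternatives). With 3 libraries, leaving 1 out cannot move a mean by 1 SD, so only the TMM and DESeq2 alternatives could have failed. The count of 8 of 10 detected genes became 9 at a limit of 0.5 CPM and 7 at 2 CPM. Length decided most of what moved. Without length correction the log2 ratios were 4.40 (Loxl4 to Loxl3), 7.30 (Loxl4 to Loxl1), 8.05 (Loxl4 to Loxl2), 2.85 (P4ha1 to P4ha2), 2.18 (Plod2 to Plod1), 1.85 (Plod3 to Plod1), 0.34 (Plod2 to Plod3), 2.26 (P4hb to P4ha1 and P4ha2) and 3.36 (P4ha2 to P4ha3, 2.37 ± 0.12 per kilobase of exon). With the longest transcript as length they were 2.45 (P4ha1 to P4ha2), 2.34 (Plod2 to Plod1), 2.17 (Plod3 to Plod1), 0.18 (Plod2 to Plod3), 2.71 (P4hb to its partners) and 3.01 (P4ha2 to P4ha3), and P4ha1 to Plod2 reversed to -0.16, as it did to -0.018 without correction. With the coding length, added after the data were seen, they were 4.39 (Loxl4 to Loxl3), 8.08 (Loxl4 to Loxl2), 2.86 (P4ha1 to P4ha2), 2.12 (Plod2 to Plod1), 1.82 (Plod3 to Plod1), 0.30 (Plod2 to Plod3), 2.33 (P4hb to its partners) and 3.38 (P4ha2 to P4ha3). The share of Loxl4 was 94.6% in raw counts and 94.4% by coding length. Shares of Plod1, Plod2 and Plod3 were 10.9%, 49.7% and 39.4% in raw counts, 9.46%, 48.0% and 42.5% by longest transcript and 11.2%, 49.0% and 39.7% by coding length, and that of P4ha1 was 86.8%, 82.9% and 86.9% in this order. With a library left out, the count of members past the Poisson test ranged from 1 (without C3) to 6, and without C3 the share of all genes called also fell, to 12.9%. The coding length planned from RefSeq proteins was not run, since no protein table was at hand. No paired analysis was possible because the 3 libraries form 1 group.

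Depth limits Lox, Loxl1 and Loxl2, with 2, 178 and 106 counts in all. In C1, the shallowest library, 1 count is worth 0.0567 CPM.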
